A study of Mus musculus with 12 samples.

Results

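The EGR and NR4A immediate-early factors were followed here as 10 genes fixed by name, namely Egr1, Egr2, Egr3, Nr4a1, Nr4a2, Nr4a3, Nab1, Nab2, Ier2 and Ier3, out of 24439 gene names listed in every library. All 10 were above 1 TPM (transcript abundance per length, scaled to 1000000 in each library) in at least 1 library and so were among the 12442 genes kept for testing. The cells were mouse CD4 T blasts (TB), made from spleen of C57BL/6 C42 mice, a line that carries a fragment of the human IL3/CSF2 locus as a transgene and was back-crossed to C57BL/6J per the methods. All groups share this background and an activation with 2 µg/ml Concanavalin A for 40 h, followed by expansion with IL-2 (50 U/ml) over 2 days per the labels (30 h in the methods). TB IL-2 cells then stayed in IL-2 and TB IL-2nil cells spent 16 h without it. TB+ IL-2 and TB+ IL-2nil cells in addition received the phorbol ester PMA together with a calcium ionophore (written PMA/I), over 2 h per the methods. Each of the 4 groups had 3 RNA-Seq libraries. Neither the labels nor the methods tie a library to an animal, and p-values therefore measure the spread between these cultures or libraries.

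Immediate-early genes are switched on from signalling alone, without new protein synthesis, within minutes of a stimulus. PMA activates protein kinase C and the ERK cascade, which reaches promoters through SRF and its ETS partners, and the ionophore raises calcium, which acts through calcineurin, NFAT, MEF2 and CREB. Together they bypass the T cell receptor. EGR1, EGR2 and EGR3 are zinc-finger factors that bind GC-rich sites, and EGR2 and EGR3 are known as restraints on T cell activation. NAB1 and NAB2 bind EGR proteins and hold back their activity. NR4A1, NR4A2 and NR4A3 are orphan nuclear receptors that act without a ligand, so that their abundance largely sets their activity, and are known from tolerant and chronically stimulated T cells. IER2 and IER3 are small, short-lived products of the same class of response, of which IER3 is known for effects on cell survival.

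To show the regulatory letters that these genes carry, the RefSeq promoter table (GRCm38.p6; 250 bases before to 50 after each start site) was searched on both strands. Windows of 7 of the 10 members matched by symbol (Egr2, Nr4a1, Nr4a2, Nr4a3, Nab1, Nab2 and Ier3). The stretches below run 5′ to 3′ on the gene's strand, and each ends before a start site in that table. These start sites are at 67537566 and 67537869 for Egr2, 101266846 for Nr4a1, 57124003 for Nr4a2, 48045305 for Nr4a3 and 52500448 for Nab1. By their unique match to mm9, both Egr2 stretches (from 67000204 and 67000541) and the Nab1 stretch (from 52557387) lie inside the GENCODE M1 span of their gene, where another transcript starts further upstream, and the Nab1 stretch overlaps 1 annotated exon. They are shown because Nr4a1, Nr4a2 and Nr4a3 held several copies of TGACG, the core of the cyclic AMP response element (CRE) bound by CREB, and because Egr2 held the CArG box, the SRF site. Capitals mark the CArG box in the first Egr2 stretch, the CArG box and a TGACG core in the second, TGACG cores and an EGR site in Nr4a1, TGACG cores in Nr4a2 and Nr4a3, and a TGACG core and an EGR site in Nab1. A core on the opposite strand reads CGTCA.
Egr2, chr10:67537456-67537525 (+): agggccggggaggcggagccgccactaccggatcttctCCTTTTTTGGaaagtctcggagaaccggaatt
Egr2, chr10:67537793-67537822 (+): cagtCCATATATGGgcagcgaCGTCAcggg
Nr4a1, chr15:101266606-101266816 (+): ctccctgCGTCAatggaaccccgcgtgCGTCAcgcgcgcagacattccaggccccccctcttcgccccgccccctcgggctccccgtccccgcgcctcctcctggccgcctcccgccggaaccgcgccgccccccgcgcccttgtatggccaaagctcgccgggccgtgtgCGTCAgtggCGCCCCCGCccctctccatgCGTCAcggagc
Nr4a2, chr2:57124103-57124210 (-): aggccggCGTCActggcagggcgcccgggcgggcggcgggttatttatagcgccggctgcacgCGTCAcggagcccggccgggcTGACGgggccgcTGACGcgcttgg
Nr4a3, chr4:48045067-48045115 (+): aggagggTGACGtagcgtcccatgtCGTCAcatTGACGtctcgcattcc
Nab1, chr1:52500543-52500572 (-): gCGTCActcggccgcGCGTGGGCGggagcc

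The TGACG core was found in 5 of the 7 members (Egr2, Nab1, Nr4a1, Nr4a2 and Nr4a3) and in 23.0% of all 27025 genes with a window. How many of all genes held several copies was not counted. The CArG box was found in Egr2 and in 1.81% of all genes. The EGR site, searched as GCGTGGGCG and GCGGGGGCG, was found in Nab1 and Nr4a1 and in 3.93% of all genes. The TATA box TATAAA was found in Nr4a2 (15.7% of all genes), and GGAAA, the core read by NFAT, in Egr2, Nr4a2 and Ier3 (64.4%). No window of these 7 held the whole CRE TGACGTCA (2.03% of all genes), the NR4A site AAAGGTCA (1.70%) or the AP-1 site, searched as TGACTCA and TGAGTCA (5.95%). Nab2 held none of the letters searched. Each TGACGTCA also counts as a TGACG core, and a match is a description of letters and not of a bound site.

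Before any result, the placement of 2 libraries has to be stated. The library labelled TB IL-2nil replicate 3 and the library labelled TB+ IL-2 replicate 3 were placed in each other's group. This placement follows the published table of expression values per library. Over 1383 genes, with the 10 members left out, 99.9% to 100% of the values of each column of that table matched 1 deposited library within 0.1%, and the next library matched at most 1.59%. In that table the columns with these 2 names each matched the library of the other label, and 0.0723% of the values of their own. Il2, the cytokine gene that PMA/I induces in T cells, stood at 3539 TPM in the library labelled TB IL-2nil replicate 3 and at 0.997 TPM in the library labelled TB+ IL-2 replicate 3. In the other libraries labelled as stimulated it ranged from 4116 to 8949 TPM, and in the other unstimulated ones from 0 to 4.17 TPM. All values are given in this placement, with the values as labelled and without both libraries beside them. The deposited FPKM values (fragments scaled to gene length and library size) of a library summed to 193815 to 420487, the relative depth read from their steps ranged from 0.409 to 1.24, and read counts were not used here. Levels of Il2 and of the members are given after upper-quartile scaling, which sets the 75th percentile of each library to a common value. The marker values that follow are in TPM before that scaling. The 6 markers of CD4 T cells summed to 1115 to 3086 TPM, with Cd4 at 93.7 to 427 TPM and Cd3e at 197 to 574 TPM. The summed B cell markers (4 of 5 listed) were at 24.4 to 32.4 TPM in TB IL-2nil and 6.71 to 14 TPM in TB IL-2, against 4.35 to 11.98 TPM in TB+ IL-2nil and 2.48 to 3.39 TPM in TB+ IL-2. The 2 CD8 markers summed to 5.41 to 42.8 TPM, the 5 myeloid markers to 1.39 to 4.74 TPM and the 3 NK cell markers to at most 0.295 TPM, with Ncr1 at 0 throughout. In bulk RNA, fewer cells of a type and less RNA per cell cannot be told apart.

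**Figure D1:**
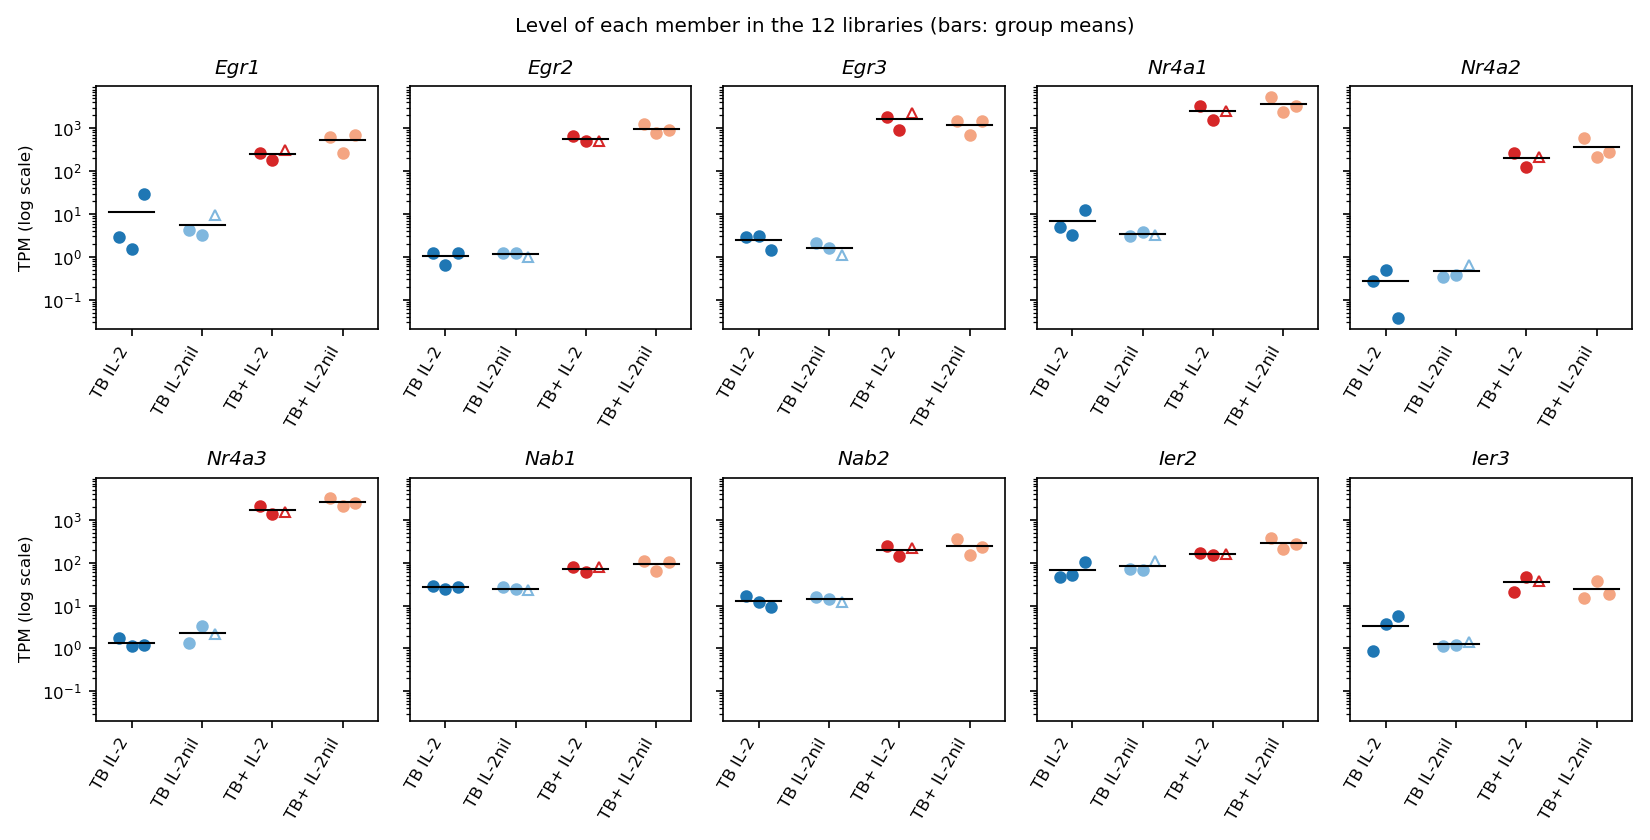
TPM (log scale) of the 10 members in the 12 libraries, by group, with 1 point a library, bars for group means and open triangles for the 2 libraries placed in each other's group. All 10 genes are higher in every PMA/I library than in any unstimulated library, and the gap is narrowest for Ier2, where the lowest stimulated value was 152 TPM and the highest unstimulated one 111 TPM.

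Without PMA/I, Egr2, Egr3, Nr4a2, Nr4a3 and Ier3 were among the lowest of the genes kept, and the Nab and Ier2 transcripts were not. Egr2 was at 1.25, 0.637 and 1.26 TPM in the 3 TB IL-2 libraries and at 1.27, 1.23 and 0.978 TPM in TB IL-2nil, which is rank 10766 and 10929 of 12442 by mean level. Nr4a2 lay lower still, between 0.0371 and 0.663 TPM in all 6 unstimulated libraries. Nr4a3 stood at 1.16 to 3.29 TPM, Egr3 at 1.11 to 3.01 TPM and Ier3 at 0.873 to 5.59 TPM. In contrast, Ier2 already ranked at 1587 in TB IL-2 and 1236 in TB IL-2nil, with means of 68.5 ± 32.2 (SD, n = 3) and 82.6 ± 24.8 TPM (SD, n = 3). Nab1 was at 26.9 ± 2.11 and 24.6 ± 1.87 TPM and Nab2 at 12.6 ± 3.62 and 14.1 ± 2.14 TPM (SD, n = 3 each), so that each corepressor stood above each EGR gene in 5 of 6 unstimulated libraries and Egr1 stood above both in TB IL-2 replicate 3. Egr4, the fourth EGR gene, was listed at 0 in all 6 unstimulated libraries.

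The unstimulated libraries of replicate 3 carried more of some of these transcripts and less of others. Of the members, 5 had their highest and 3 their lowest TB IL-2 value in replicate 3. In TB IL-2nil, 4 had their highest and 4 their lowest value in the library placed as replicate 3. Egr3 and Nab2 were lowest in both, with 1.48 and 9.22 TPM in TB IL-2 replicate 3. Egr1 was at 29.6 TPM in TB IL-2 replicate 3, against 2.90 and 1.56 TPM in replicates 1 and 2. It was at 9.38 TPM in the library placed as TB IL-2nil replicate 3, against 4.21 and 3.21 TPM. Ier2 was at 106 TPM in TB IL-2 replicate 3, against 47.1 and 52.9 TPM, and at 111 TPM in the library placed as TB IL-2nil replicate 3, against 69.8 and 66.8 TPM. Nr4a1 was at 12.3 TPM in TB IL-2 replicate 3 against 4.89 and 3.23 TPM, but at 3.21 TPM in TB IL-2nil replicate 3, between its neighbours at 3.12 and 3.72 TPM. Of 36 further immediate-early genes listed for this report, 23 had their highest TB IL-2 value in replicate 3 and 28 their highest TB IL-2nil value in the library placed as replicate 3, where 28.9% and 34.0% of all genes kept had theirs. Fosb, an AP-1 subunit, was at 25.4 TPM in TB IL-2 replicate 3 against 1.01 and 0.187 TPM. Values without TB IL-2 replicate 3 stand beside the results of Egr1 and Ier2 below.

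PMA/I was compared with no stimulus in cells kept in IL-2 to ask how far these factors are induced in cycling T blasts. Of the 10 members, 8 rose by over 3-fold at an adjusted p below 0.05 in limma (Benjamini-Hochberg over all 12442 genes). This call was made in the upward direction for 3.94% of all genes. Nab1 and Ier2 rose as well, by less than 3-fold. In cells without IL-2, all 10 were called higher, beside 7.78% of all genes. The median log2 difference of the members was 6.23 with IL-2 and 7.07 without, where that of all genes was -0.22 and -0.38. No member overlapped between stimulated and unstimulated libraries in either condition, and 16.6% and 21.8% of all genes lay wholly higher in the stimulated libraries in the same way. With both replaced libraries left out, every call of these 2 comparisons stood, and with the libraries as labelled no member was called in either.

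Nr4a3, encoding NOR-1 (mm9 chr4:48058025-48099319, plus strand), had the largest log2 difference of the members. It rose from 1.72, 1.16 and 1.21 TPM in TB IL-2 to 2079, 1353 and 1534 TPM in TB+ IL-2, and from 1.36, 3.29 and 2.19 TPM in TB IL-2nil to 3287, 2094 and 2424 TPM in TB+ IL-2nil. The lowest stimulated library with IL-2 stood 785-fold above the highest unstimulated one. On the log2(TPM + 1) scale, on which all fitted differences are given and which compresses the change of genes near 0 TPM, it rose by 9.44 (SE 0.26, adjusted p = 3.3e-09) with IL-2 and by 9.65 (SE 0.26, adjusted p = 1.7e-09) without. These were the sixth and the fourth largest increases among 12442 genes. As labelled, the values were 6.47 (adjusted p = 0.30) and 6.68 (adjusted p = 0.12), and with both libraries left out 9.47 and 9.64.

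Nr4a1, encoding NUR77 (mm9 chr15:101097277-101105223, plus strand), reached the highest level of the 10. It was at 3355, 1548 and 2577 TPM in TB+ IL-2, rank 56 by mean level, and at 5351, 2338 and 3226 TPM in TB+ IL-2nil, rank 37. The unstimulated libraries held 3.12 to 12.3 TPM. The fitted increase was 8.42 (SE 0.43, adjusted p = 2.85e-07) with IL-2 and 9.63 (SE 0.43, adjusted p = 1.0e-07) without IL-2. Nr4a2, encoding NURR1 (mm9 chr2:56959241-56976414, minus strand), had the lowest level of the family in every stimulated library, at 265, 126 and 211 TPM in TB+ IL-2 and 602, 214 and 283 TPM in TB+ IL-2nil. It rose by 7.26 (SE 0.36, adjusted p = 2.5e-07) and 7.84 (SE 0.36, adjusted p = 1.1e-07), values that became 9.26 and 9.26 with a pseudocount of 0.1 because its unstimulated levels were below 1 TPM.

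Among the EGR genes, Egr3 reached a higher mean level than Egr2, as it had before PMA/I. Egr3 (mm9 chr14:70477252-70479964, plus strand) reached 1845, 928 and 2223 TPM in TB+ IL-2 and 1456, 689 and 1455 TPM in TB+ IL-2nil, a rise of 8.84 (SE 0.37, adjusted p = 1.0e-07) and 8.79 (SE 0.37, adjusted p = 7.6e-08). Egr2 (mm9 chr10:66998223-67004936, plus strand) reached 669.5, 494 and 499 TPM in TB+ IL-2 and 1246, 789 and 909 TPM in TB+ IL-2nil. Its rise of 8.08 (SE 0.21, adjusted p = 3.3e-09) and 8.81 (SE 0.21, adjusted p = 1.7e-09) had the smallest SE of the 6 EGR and NR4A genes. Egr4 was listed at 12.9, 3.89 and 37.7 TPM in TB+ IL-2 and at 5.602, 8.99 and 16.0 TPM in TB+ IL-2nil.

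Egr1 (mm9 chr18:35020861-35024638, plus strand) rose less and with more spread than Egr2 and Egr3. It was at 266, 179 and 314.5 TPM in TB+ IL-2 and at 625, 263 and 687 TPM in TB+ IL-2nil. The increase was 5.20 (SE 0.77, adjusted p = 0.00056) with IL-2 and 6.31 (SE 0.77, adjusted p = 4.8e-05) without. Leaving out TB IL-2 replicate 3, the unstimulated library with 29.6 TPM, moved the first value to 6.28, and leaving out TB IL-2 replicate 2 moved it to 4.51, with the call kept in both. Across these and 19 other alternatives, the fitted increase of Egr1 with IL-2 ranged from 4.51 to 6.28.

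The corepressors rose less than the factors they bind. Nab2 (mm9 chr10:127097974-127105624, minus strand), which is itself known as a target of EGR factors, went to 243, 141 and 218 TPM in TB+ IL-2 and 350.0, 149.8 and 231.5 TPM in TB+ IL-2nil. It rose by 3.89 (SE 0.32, adjusted p = 1.0e-05) and 3.94 (SE 0.32, adjusted p = 3.8e-06). Nab1 (mm9 chr1:52514138-52557523, minus strand) went to 77.7, 61.6 and 78.9 TPM and 109, 65.6 and 102 TPM. It rose by 1.39 (SE 0.20, adjusted p = 0.00040), under 3-fold, and by 1.83 (SE 0.20, adjusted p = 2.1e-05), and the second value fell to 1.28, under 3-fold, without upper-quartile scaling. Per library, the ratio of Nab2 to the summed TPM of Egr1, Egr2 and Egr3 was 0.285 to 2.32 in TB IL-2 and 1.03 to 2.41 in TB IL-2nil. It was 0.0718 to 0.0881 in TB+ IL-2 and 0.0759 to 0.105 in TB+ IL-2nil, so that the ratio was lower in every stimulated than in any unstimulated library. The order of the corepressors turned as well, with Nab2 at 0.339 to 0.608 of Nab1 in the unstimulated libraries and at 2.28 to 3.23 of it in the stimulated ones. Such ratios within a library do not depend on the scaling between libraries, and they were chosen after the values had been seen.

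Ier2 (mm9 chr8:87185230-87186751, minus strand), the member with the highest level before the stimulus, had the smallest rise of the 10 in both conditions. It was at 171, 152 and 158 TPM in TB+ IL-2, an increase of 1.31 (SE 0.32, adjusted p = 0.0090), under 3-fold. Without TB IL-2 replicate 3 the increase was 1.66, which is past 3-fold. In TB+ IL-2nil it was at 379, 208 and 274 TPM, an increase of 1.78 (SE 0.32, adjusted p = 0.00061), which lay under 3-fold without TB+ IL-2nil replicate 1 (1.56), without upper-quartile scaling (1.23) and with quantile normalization (1.43). Ier3 (mm9 chr17:35958629-35959868, plus strand) had the lowest stimulated level of the 10, at 21.2, 45.2 and 37.2 TPM in TB+ IL-2 and 14.7, 37.8 and 18.6 TPM in TB+ IL-2nil. It rose by 3.14 (SE 0.46, adjusted p = 0.00051) and 3.35 (SE 0.46, adjusted p = 0.00010). Of the relatives outside the 10, Ier5 rose by 2.05 (adjusted p = 0.00012) and 2.07 (adjusted p = 3.2e-05), and Ier5l was at most 1.28 TPM in all 12 libraries. B cell marker sums were lower in the stimulated than in the unstimulated groups, as given above, and their part in these increases was not tested.

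**Figure D2:**
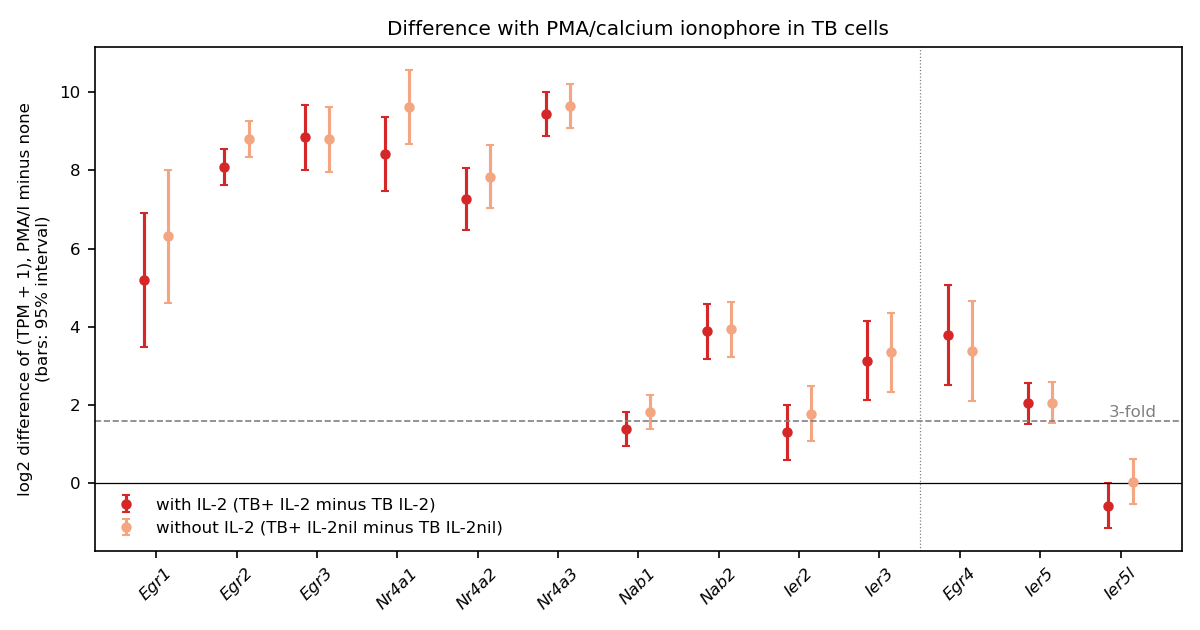
Log2 difference of TPM + 1 between PMA/I and no stimulus, with IL-2 (red) and without IL-2 (orange), for the 10 members and, right of the dotted line, Egr4, Ier5 and Ier5l. Points are limma estimates, bars 95% intervals and the dashed line 3-fold. The 5 genes Egr2, Egr3, Nr4a1, Nr4a2 and Nr4a3 lie between 7.26 and 9.65, Egr1 between 5.20 and 6.31, and Nab1 and Ier2 near the 3-fold line.

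By level after PMA/I with IL-2, the order was Nr4a1 (mean 2494 ± 907 TPM, SD, n = 3), Egr3 (1665 ± 666), Nr4a3 (1655 ± 378), Egr2 (554 ± 100.1), Egr1 (253 ± 68.8), Nr4a2 (201 ± 70.1), Nab2 (201 ± 53.1), Ier2 (160.3 ± 9.63), Nab1 (72.7 ± 9.64) and Ier3 (34.6 ± 12.2). The ranges of Nr4a1, Egr3 and Nr4a3 overlapped, as did those of neighbours from Egr1 to Ier2. Egr2 stood apart from both its neighbours, and Nab1 and Ier3 from theirs. Without IL-2 the order ran Nr4a1 (3638 ± 1549), Nr4a3 (2602 ± 616), Egr3 (1200 ± 442), Egr2 (981 ± 237), Egr1 (525 ± 229), Nr4a2 (366 ± 207), Ier2 (287 ± 86.3), Nab2 (244 ± 101), Nab1 (91.9 ± 23.0) and Ier3 (23.7 ± 12.3). There the range of Egr3 overlapped that of Egr2 and not that of Nr4a3. Replicate 2 was the lowest library of its group for 9 of the 10 members in TB+ IL-2 and again in TB+ IL-2nil, and it held the lowest value of 31.3% and 33.7% of all genes.

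The effect of IL-2 on this response was asked in the stimulated cells. The 8 members other than Egr3 and Ier3 were lower with IL-2 than without it in the fit, and 1 of them, Egr2, passed an adjusted p of 0.05. None reached 3-fold, a call made upward for 3.21% and downward for 0.41% of all genes. At any size, an adjusted p under 0.05 was reached upward by 12.9% and downward by 8.4% of all genes. The median log2 difference of the members was -0.59, where that of all genes was -0.04. As labelled, no member passed, and all 10 differences were below 0.

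Egr2 was at 669.5, 494 and 499 TPM with IL-2 and at 1246, 789 and 909 TPM without. Its groups did not overlap with upper-quartile scaling, and they overlapped without it. It was lower with IL-2 by 0.81 on the log2 scale (SE 0.21, adjusted p = 0.020, 95% interval of the difference -1.27 to -0.35), or 1.75-fold. Within replicate numbers the ratio with over without IL-2 was 0.537, 0.626 and 0.549. This call was lost with both replaced libraries left out (-0.74, adjusted p = 0.098), and without TB+ IL-2 replicate 2, TB+ IL-2 replicate 3 as placed, or TB+ IL-2nil replicate 1 (adjusted p = 0.070, 0.077 and 0.078), and with a pseudocount of 0.1 (adjusted p = 0.061). Without upper-quartile scaling the difference was -0.42 (adjusted p = 0.43), and it passed in 15 of 21 alternatives, the labels as given not among them, where the adjusted p ranged from 0.0046 to 0.43. The lowest of these came with the replicate number as a block.

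The factors of that scaling were 1.06 to 1.72 in TB+ IL-2nil and 0.952 to 1.07 in TB+ IL-2, and leaving it out moved the median of all genes in this comparison by 0.27 upward. Short non-coding RNAs held 33.0% to 53.2% of the summed values in TB+ IL-2nil and 22.2% to 27.5% in TB+ IL-2. With these RNAs left out and the scaling kept, Egr2 was at -0.83 (adjusted p = 0.021), and no other test of their part in the differences was made.

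The NR4A genes were lower with IL-2 by 0.53 (Nr4a1, adjusted p = 0.41), 0.79 (Nr4a2, adjusted p = 0.15) and 0.65 (Nr4a3, adjusted p = 0.093), which did not pass the test. Their 95% intervals of the difference ran from -1.47 to 0.41, from -1.58 to 0.01 and from -1.21 to -0.09. With the replicate number as a block, the adjusted p of these genes was 0.29, 0.092 and 0.082 in this order. Nr4a3 did not overlap between the groups, with ratios within replicate numbers of 0.633, 0.646 and 0.633. Ier2, whose groups did not overlap either, was lower by 0.80 (adjusted p = 0.10, and 0.051 with the block), with ratios of 0.451, 0.732 and 0.576. Non-overlapping lower values with IL-2 were found for 3 of the 10 members and for 18.3% of all genes. Overlap was judged with upper-quartile scaling, and without it the groups of Egr2, Nr4a3 and Ier2 overlapped. The unscaled ratios of Nr4a3 were 1.12, 0.746 and 0.706. Egr1 differed by -0.97 (adjusted p = 0.40) within a wide interval from -2.67 to 0.73. Nab1 at -0.31 (adjusted p = 0.29) and Nab2 at -0.23 (adjusted p = 0.64) became 0.08 and 0.16 without upper-quartile scaling.

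Egr3 and Ier3 stood on the other side. Egr3 was higher with IL-2 in each of 3 replicate numbers, with ratios of 1.27, 1.35 and 1.53, and Ier3 with ratios of 1.44, 1.20 and 2.00. Neither difference passed the test, at 0.46 (SE 0.37, adjusted p = 0.41, 95% interval -0.36 to 1.28) and 0.57 (SE 0.46, adjusted p = 0.40, 95% interval -0.44 to 1.58). Without scaling, all 3 ratios of both genes remained above 1, and all 3 ratios of Egr1, Egr2, Nr4a2 and Ier2 remained below it.

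**Figure D3:**
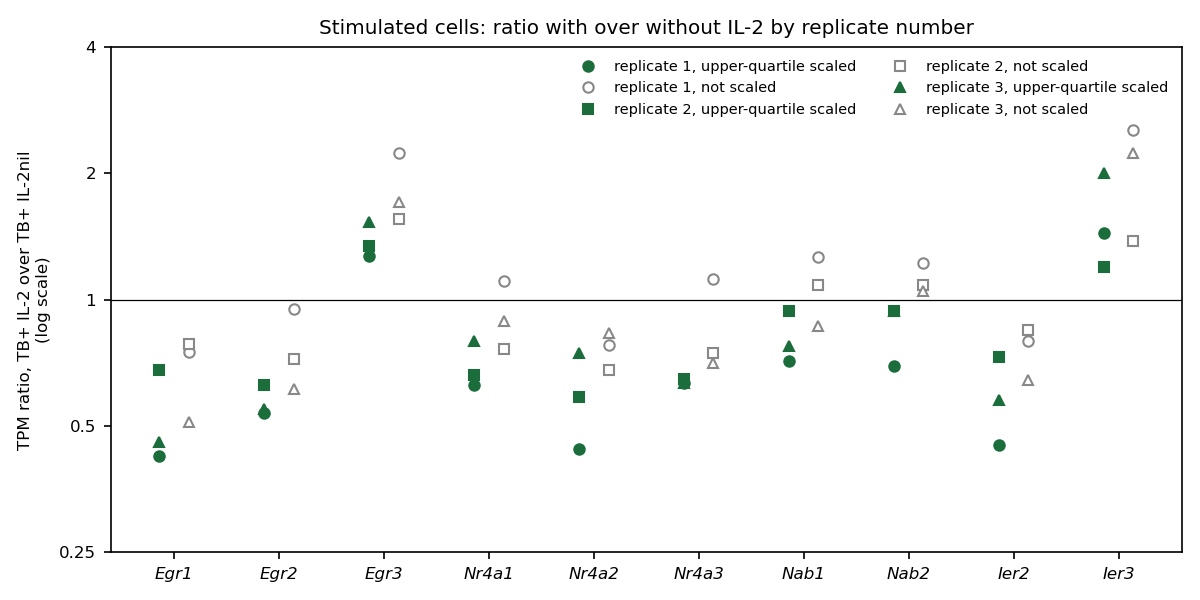
Ratio of TPM in TB+ IL-2 over TB+ IL-2nil (log scale) for each member, 1 symbol shape a replicate number, filled with upper-quartile scaling and open without it. With scaling, Egr3 and Ier3 lie above 1 in all 3 replicate numbers and the other 8 members below 1. Without it, Nab2 lies above 1 in all 3, and Nr4a1, Nr4a3 and Nab1 on both sides.

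The make-up of the EGR family in stimulated cells differed with IL-2 within each library, a measure that the scaling between libraries does not touch. Egr3 made up 66.4%, 58.0% and 73.2% of the summed Egr1, Egr2 and Egr3 TPM in TB+ IL-2 and 43.8%, 39.6% and 47.7% in TB+ IL-2nil. Egr1 made up 9.55%, 11.2% and 10.4% with IL-2 and 18.8%, 15.1% and 22.5% without. The groups did not overlap in these shares of Egr3 and Egr1. Egr2 made up 24.1%, 30.9% and 16.4% with IL-2 and 37.5%, 45.3% and 29.8% without, and its groups overlapped. How many other gene ratios separate in this way was not determined. The ratio of Egr3 to Egr2 was 2.76, 1.88 and 4.46 with IL-2 and 1.17, 0.874 and 1.60 without, and that of Egr3 to Egr1 was 6.95, 5.19 and 7.07 against 2.33, 2.62 and 2.12. An exact permutation test of 3 libraries against 3 cannot go below a two-sided p of 0.10, and these ratios were chosen after the values had been seen, so that no p is given. Before PMA/I the ratio of Egr3 to Egr2 was 2.39, 4.72 and 1.17 in TB IL-2 and 1.65, 1.295 and 1.14 in TB IL-2nil, also higher with IL-2 in each replicate number but with overlapping groups, and whether the contrast differs between stimulated and unstimulated cells was not tested. Leaving out the replaced libraries cannot make separate groups overlap, so that setting does not test these ratios. As labelled the groups overlapped, since the library labelled TB+ IL-2 replicate 3 had an Egr3 to Egr2 ratio of 1.14 and an Egr3 to Egr1 ratio of 0.119.

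The NR4A shares overlapped between the same groups. Nr4a1 made up 51.1% to 59.6% of the summed Nr4a1, Nr4a2 and Nr4a3 TPM with IL-2 and 50.3% to 57.9% without. Nr4a3 made up 35.5% to 44.7% and 35.6% to 45.1%, and Nr4a2 4.16% to 4.89% and 4.61% to 6.51%. In sum, the 6 EGR and NR4A genes took 8480, 4627 and 7359 TPM in TB+ IL-2 and 12567, 6386 and 8985 TPM in TB+ IL-2nil, against 10.1 to 45.9 TPM in the unstimulated libraries. These sums carry the upper-quartile factors, 1.06 to 1.72 in TB+ IL-2nil and 0.952 to 1.07 in TB+ IL-2. They are not shares of 1000000, and their order between the stimulated groups depends on that scaling.

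**Figure D4:**
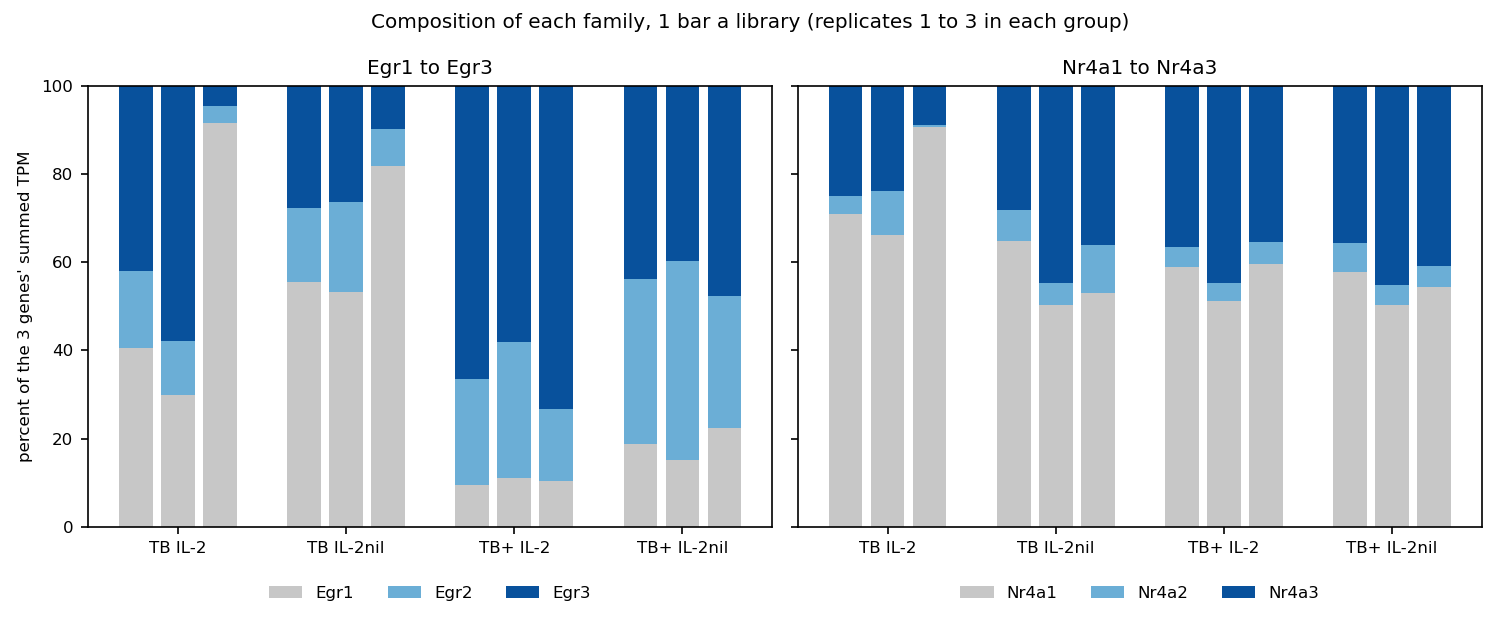
Share in percent of each gene in the summed TPM of its family, EGR on the left and NR4A on the right, 1 bar a library in the order of replicates 1 to 3 of each group. Egr3 takes 58.0% to 73.2% of the EGR sum in TB+ IL-2 and 39.6% to 47.7% in TB+ IL-2nil, and the NR4A shares of the stimulated groups overlap.

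Before PMA/I, IL-2 made no detectable difference to any member. None had an adjusted p under 0.05 in limma, and 0 had an unadjusted p under 0.05, where 17.3% of all genes passed the adjusted p upward and 22.3% downward. At more than 3-fold, 4.69% of all genes were called upward and 2.73% downward. The estimates ranged from -0.44 (Nr4a3, adjusted p = 0.19, 95% interval -0.996 to 0.12) to 0.78 (Ier3, adjusted p = 0.20, 95% interval -0.23 to 1.79). Ier3 passed without TB IL-2 replicate 1 (1.29, adjusted p = 0.026), and the interval of Egr1, from -1.56 to 1.84, left room for a difference of more than 3-fold. Without TB IL-2 replicate 3 the estimate of Egr1 was -0.95 (adjusted p = 0.16). The groups overlapped for all 10 members, where 22.8% of all genes lay wholly higher with IL-2 and 30.4% wholly lower. Ier5, in contrast, was at 34.9, 27.4 and 42.8 TPM in TB IL-2 and 56.1, 48.1 and 90.8 TPM in TB IL-2nil, lower by 0.84 (adjusted p = 0.016). It was also lower with IL-2 after PMA/I, by 0.86 (adjusted p = 0.026), and without upper-quartile scaling this difference was -0.47 (adjusted p = 0.48). With both replaced libraries left out the adjusted p of Ier5 was 0.065 before and 0.051 after PMA/I.

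The interaction, the difference between the rise with IL-2 and the rise without, was not called for any member, at an adjusted p under 0.05. It was called upward for 1.57% and downward for 2.66% of all genes, and with the replicate number as a block the counts of these genes went from 195 and 331 to 760 and 718, with no member among the calls. Nr4a1 had the largest estimate among the members, -1.20 (SE 0.61, adjusted p = 0.26, 95% interval -2.53 to 0.13). Egr1 followed at -1.11 (SE 1.09, adjusted p = 0.57). Leaving out 1 library at a time, the estimate of Nr4a1 ranged from -1.56 to -0.73 and that of Egr1 from -1.81 to -0.02. The value of -0.02 for Egr1 came without TB IL-2 replicate 3. Egr2 was at -0.72 (SE 0.30, adjusted p = 0.18 in limma, and 0.062 with the block). For Egr3 and Nab2 the estimates were 0.05 and -0.05.

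Of the 36 further immediate-early genes, 22 were called higher with PMA/I with IL-2 and 22 without, and 1 lower in each, Klf2, a factor of resting T cells named here after its values were seen. Of all genes, 3.94% and 7.78% were called higher and 3.1% and 10.7% lower. Their median log2 difference was 2.25 with IL-2 and 2.65 without, beside medians of the 10 members of 6.23 and 7.07. The largest rises with IL-2 were those of Atf3 (6.56, adjusted p = 1.9e-07), Fosb (6.04, adjusted p = 0.0012), Gadd45b (5.39, adjusted p = 2.1e-05), Trib1 (5.16, adjusted p = 4.2e-05) and Plk3 (4.56, adjusted p = 1.5e-05). Thus Egr2, Egr3, Nr4a1, Nr4a2 and Nr4a3 all had larger log2 differences than any of these. In stimulated cells with against without IL-2, the median of the 36 was -0.77, none was called higher, and Klf4, a zinc-finger factor of quiescence, was called lower at -1.64 (adjusted p = 0.016, and 0.068 with both replaced libraries left out). The Klf4 call was also lost without upper-quartile scaling (-1.26, adjusted p = 0.079) and with a pseudocount of 0.1 (adjusted p = 0.067). It was lost as well without TB+ IL-2 replicate 2 or 3 (adjusted p = 0.062 and 0.052) and without TB+ IL-2nil replicate 1 or 3 (adjusted p = 0.061 and 0.052). Tnfaip3, a brake on NF-kB, differed by -1.35 (adjusted p = 0.32) and Sik1 by -1.32 (adjusted p = 0.055, and 0.033 with the replicate block). Before PMA/I, Fos (2.73, adjusted p = 0.035) and Myc (2.48, adjusted p = 0.0025) were called higher with IL-2, and Btg2 (-2.36, adjusted p = 0.0021) and Rgs2 (-2.50, adjusted p = 0.0018) lower, all named after their values were seen. Of all genes, 4.69% were called higher and 2.73% lower with IL-2 before PMA/I. The call of Fos was lost without TB IL-2 replicate 3 (1.78, adjusted p = 0.14) and without TB IL-2 replicate 2 (adjusted p = 0.086). It was also lost without TB IL-2nil replicate 1 or 2 (adjusted p = 0.093 and 0.12) and with no filter on low values (adjusted p = 0.072).

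The machinery that carries PMA and calcium signals to these promoters was followed in 30 genes from RasGRP and protein kinase C to SRF, MEF2 and CREB. With IL-2, 1 of them was called lower with PMA/I, the SRF coactivator Mkl1 (-1.96, adjusted p = 0.00023), beside 3.1% of all genes. Mkl2 (-1.50, adjusted p = 0.0091), the acetyltransferase gene Ep300 (-1.15, adjusted p = 0.00043) and Prkcq, encoding the protein kinase C of T cells (-1.08, adjusted p = 0.0032), followed under 3-fold. Without IL-2, Mkl1 (-2.41), Creb1 (-1.73), Ep300 (-1.69) and Mapk3 (-1.64) were called lower, beside 10.7% of all genes, with adjusted p of at most 0.0014. Of these, Creb1 and Mapk3 were named after their values were seen. Mapk3 lay under 3-fold with both replaced libraries left out (-1.56), with no filter on low values (-1.46) and with quantile normalization (-1.22). The same held without TB IL-2nil replicate 3 as placed (-1.56) and without TB+ IL-2nil replicate 1 or 2 (-1.53 and -1.37). Creb1 lay under 3-fold with no filter (-1.54) and with quantile normalization (-1.53). Ep300 did so with no filter (-1.50) and without TB+ IL-2nil replicate 2 (-1.51). In stimulated cells, Mapk3, which encodes ERK1, was at 34.0, 18.4 and 31.1 TPM with IL-2 and 6.06, 4.67 and 12.9 TPM without, higher by 1.76 (adjusted p = 0.0044). The ETS partners of SRF went the other way, Elk4 by -0.9996 (adjusted p = 0.0026) and Elk3 by -0.93 (adjusted p = 0.022), and both lost the adjusted p without upper-quartile scaling (-0.61 and -0.54). Elk3 also lost it with both replaced libraries left out (adjusted p = 0.11). The same held for Elk3 without TB+ IL-2 replicate 2 or 3, or TB+ IL-2nil replicate 1 (adjusted p = 0.067, 0.095 and 0.087). The median of the 30 was -0.36 in this comparison.

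Of 24 genes known as EGR2 or EGR3 targets or linked to NR4A factors in T cells, 23 were kept, and 10 were called higher with PMA/I with IL-2 (3.94% of all genes) and 8 without (7.78%). In both conditions 1 was called lower (3.1% and 10.7% of all genes), the cell cycle inhibitor gene Cdkn1b (-2.43, adjusted p = 0.00080, and -4.26, adjusted p = 7.1e-06). The largest rises with IL-2 were those of Sema7a (5.58, adjusted p = 1.6e-06), the inhibitory receptor genes Pdcd1 (5.21, adjusted p = 9.0e-05) and Havcr2 (5.02, adjusted p = 1.4e-06), Crtam (3.65, adjusted p = 3.8e-06) and Fasl (3.61, adjusted p = 2.8e-05). In stimulated cells none was called with against without IL-2 at 3-fold. Cblb, a ubiquitin ligase gene tied to EGR2 and EGR3 in unresponsive T cells, was lower with IL-2 at -1.06 (adjusted p = 0.039, and 0.16 with both replaced libraries left out), and Sema7a (-0.90, adjusted p = 0.092) did not pass. Cblb also lost the adjusted p without upper-quartile scaling (-0.67, adjusted p = 0.23), with a pseudocount of 0.1 (0.051) and with no filter on low values (0.069). Leaving out any of several single libraries lost it as well, with adjusted p of up to 0.14. Fasl (-0.98, adjusted p = 0.063) passed with the replicate block (adjusted p = 0.018). Before PMA/I, Tnfrsf9 was called higher with IL-2 (2.25, adjusted p = 0.0011) and Cdkn1b (-1.85, adjusted p = 0.0036) and Dgka, a diacylglycerol kinase gene (-1.78, adjusted p = 0.00051), lower, which were likewise named after their values were seen. Of all genes, 4.69% were called higher and 2.73% lower there.

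**Figure D5:**
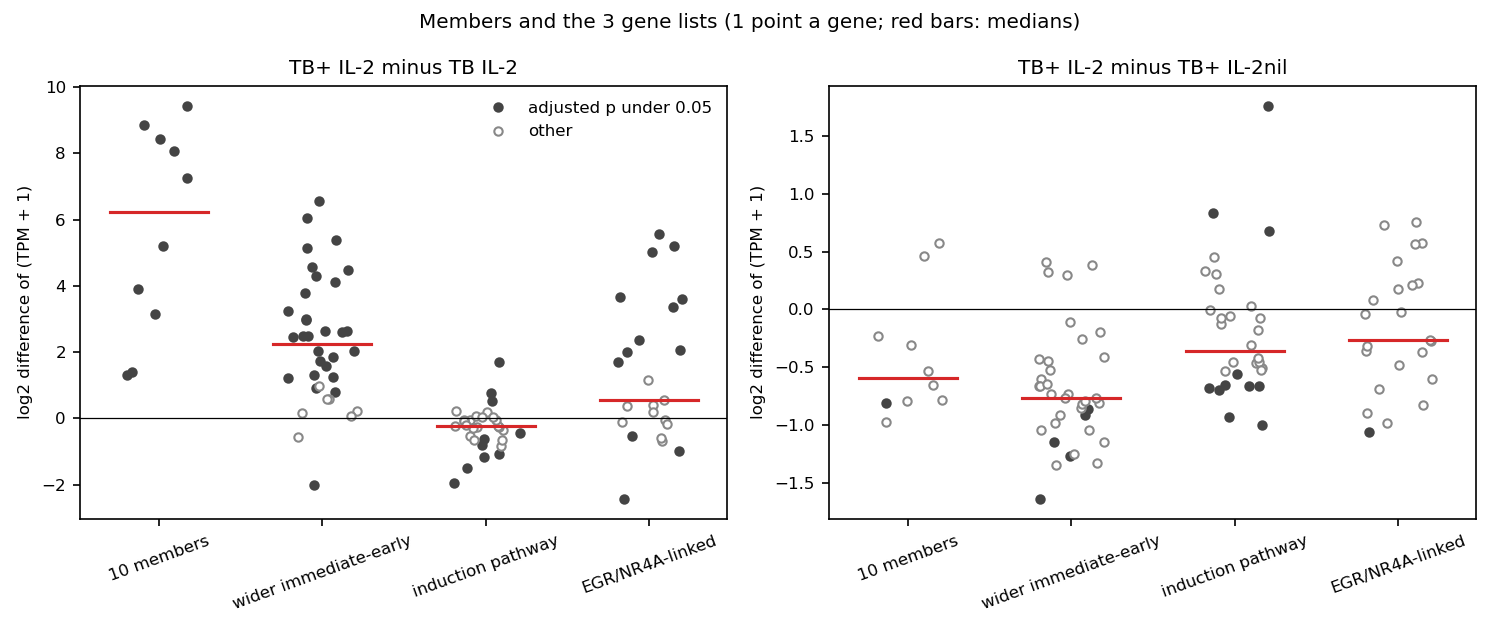
Log2 difference of TPM + 1 for each gene of the 10 members, 36 further immediate-early genes, 30 genes of the induction pathway and 23 EGR- or NR4A-linked genes. PMA/I against no stimulus with IL-2 is on the left and IL-2 against no IL-2 after PMA/I on the right, with filled points for an adjusted p under 0.05 and red bars for medians. The medians run 6.23, 2.25, -0.24 and 0.56 on the left and -0.59, -0.77, -0.36 and -0.27 on the right.

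By Pearson's r of log2(TPM + 1) over the 12 libraries, among 8920 genes of at least 10 TPM in some library, the patterns most like that of Egr1 outside the members were those of Fosb (r = 0.995), Maff (0.985) and Gadd45b (0.980). For Egr2 they were Sphk1 (0.998), Nfkbid (0.998) and Slamf7 (0.997). For Nr4a1 they were Tnfsf14 (0.995), Nfkbid (0.994) and Slamf7 (0.994), and for Nab2 Rasgef1b (0.994), Tnfsf9 (0.991) and Sphk1 (0.990). These values describe 12 libraries that share 4 conditions, and the rise with PMA/I is common to them.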

How the data were processed

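RNA was depleted of rRNA and made into directional libraries. Per the labels and the methods, the authors used Trimmomatic 0.32 for trimming, HISAT2 2.1.0 for alignment (mm9) and StringTie 1.3.3 for RefSeq genes. The deposited values are FPKM per gene name, without counts or normalization between libraries. The methods name TPM, but the column is headed FPKM and its sums differ from 1000000. The alternatives were the labels as given, both libraries left out, a pseudocount of 0.1, other filters and scalings, no short non-coding RNAs, a variance trend, the replicate block and each library left out. A library's sum is not its depth, and at low depth values near 1 TPM are imprecise.

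Here each library was rescaled to 1000000 TPM, the 12442 of 24439 genes that passed 1 TPM in any library were retained, and the 75th percentile of each was scaled to the mean of the 12. The 4 groups were fitted on log2(TPM + 1) by limma 3.58.1 under R 4.3.3, which leaves 8 residual degrees of freedom, for 5 comparisons. A call required over 3-fold and a Benjamini-Hochberg adjusted p below 0.05. The interaction required only the latter. A gene's pass at any size is given for the IL-2 comparisons. The fit was tested on simulated data with 200 changed genes. Figures and descriptions used Python 3.11.15.

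The members, the gene lists and the placement of 2 libraries were chosen with earlier results of these data known. Named are the 10 members, Egr4, Ier5, Ier5l, from each list the 5 genes with the largest change with PMA/I and the 3 with the largest change with IL-2 after PMA/I, the 3 genes most like Egr1, Egr2, Nr4a1 and Nab2, and Il2, Cd3e and Cd4. Samples of 1 replicate number deviated together (18 of 18 correlations over 0.1, from 0.101 to 0.531, in the placement used), so the numbers were taken to pair the samples. The pairing comes from these data and not from the labels. The main fits did not use it, and values that did are named as those with the block. Coordinates of genes are from GENCODE M1 on mm9, promoter letters from RefSeq on GRCm38.p6. Protein sequences were not used here, and 1 gene that the rule names is not reported here.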

Additional observations from a re-analysis of the deposited data

Results flagged for a closer look

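Of the genes named above, 3 had a rise with PMA/I that differed between cells with and without IL-2 by the interaction term in limma, and none of them was an EGR, NR4A, NAB, IER2 or IER3 gene. Myc rose less with IL-2, by -3.73 on the log2 scale (SE 0.68, adjusted p = 0.021), from 40.2, 170 and 180.3 TPM to 757, 697 and 574 TPM with IL-2 and from 14.8, 14.4 and 29.2 TPM to 1665, 1465 and 1680 TPM without. Atf3 differed by -2.38 (SE 0.44, adjusted p = 0.023) and Sema7a by -2.36 (SE 0.50, adjusted p = 0.031). With both replaced libraries left out the adjusted p was 0.075, 0.081 and 0.096 in this order, and with the replicate block 0.014, 0.014 and 0.019. All 3 also lost the call without upper-quartile scaling and as labelled. Each lost it as well on leaving out any of several single libraries. Without TB IL-2nil replicate 2 the adjusted p was 0.061 for Myc, 0.061 for Atf3 and 0.080 for Sema7a. Without TB+ IL-2 replicate 3 as placed it was 0.057, 0.057 and 0.072. Sema7a also lost it with no filter on low values (adjusted p = 0.051).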

How the results depend on the processing

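In the PMA/I comparisons, 415 of 420 values of the members under 21 alternatives (the labels as given not counted) kept their direction and side of the threshold, and none turned. In the other 3 comparisons it was 593 of 630, with 29 turned, all of estimates that had not passed. With the libraries as labelled, 0 members were called with PMA/I, against 8 with IL-2 and 10 without, and the calls over all genes fell to 21 higher and 23 lower (490 and 386 before) with IL-2, 109 and 146 (968 and 1328) without, 13 and 2 (400 and 51) for IL-2 after PMA/I, 7 and 5 (583 and 340) before it, and 0 and 0 (195 and 331) for the interaction. Egr3 then turned to -2.89 and Ier3 to -0.76 with IL-2 after PMA/I, with Egr4 at -1.35, and before it Egr1 to -1.50, Egr3 to -2.94, Nr4a1 to -2.41, Nab1 to -0.46 and Ier3 to -0.55. With both replaced libraries left out, the interaction calls were 3 and 1, Egr4 turned to -0.33 after PMA/I and Egr3 to -0.059 in the interaction. Without upper-quartile scaling, calls were 638 and 2539 for PMA/I without IL-2, 624 and 14 for IL-2 after PMA/I and 0 and 1 for the interaction. It moved the median of all genes by -0.40, 0.27 and 0.35 in these 3, and turned Nab1 to 0.081 and Nab2 to 0.16 after PMA/I, Ier5l to -0.14 without IL-2, and in the interaction Nr4a3 to 0.21, Nab1 to 0.037, Nab2 to 0.42 and Ier3 to 0.22. A pseudocount of 0.1 gave 798, 2264, 119 and 577 lower calls in the 4 comparisons in the order above and 62 and 179 for the interaction, where Egr3 turned to -0.13 and Nr4a2 to 0.0034. Quantile normalization gave 231 and 811 lower calls with PMA/I with and without IL-2 and turned Egr2 before PMA/I to 0.10. Leaving out short non-coding RNAs turned Egr3 in the interaction to -0.014. The cause was not tested beyond each alternative's construction.

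With the replicate block, for which the pairing check is given above, 760 and 718 genes were called in the interaction, and it changed no call of a member, no call of another named gene but those of Sik1 and Fasl after PMA/I, and no other count by over 1.5 times. Leaving out 1 library at a time gave 21 to 662 higher and 63 to 640 lower calls in the interaction (lowest without TB IL-2nil replicate 2, highest without TB+ IL-2nil replicate 3) and 42 to 94 lower calls for IL-2 after PMA/I (highest without TB+ IL-2nil replicate 2). Estimates that turned ranged from -0.95 to 0.84 for Egr1, -0.17 to 0.068 for Egr2 and -0.38 to 0.0057 for Nab2 before PMA/I, from -0.54 to 0.070 for Nab2 and -0.33 to 1.16 for Egr4 after it, from -0.11 to 0.26 for Ier5l with PMA/I without IL-2, and in the interaction from -0.31 to 0.43 for Egr3, -0.72 to 0.18 for Ier3 and -0.36 to 0.25 for Nab2. Nab1 passed the adjusted p after PMA/I (0.047) only without TB+ IL-2nil replicate 2 among these, and Ier3 before PMA/I (0.026) only without TB IL-2 replicate 1.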
